A study of Mus musculus with 444 samples.

Results

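The cadherins, claudins and tight junction genes described here are 9 of the 25136 genes kept for analysis: the cadherins Cdh1 and Cdh3, the claudins Cldn1, Cldn3, Cldn4, Cldn7 and Cldn8, and the tight junction genes Ocln and Tjp1. They were chosen by name, for the junctions that they build and with earlier results of these data known. They were matched to the deposited counts by Entrez GeneID. All 9 were found.

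The cells were freshly sorted mammary epithelium of the inbred mouse strain FVB/NJ, with no transgene and no treatment. The puberty group came from female mice of about 5 weeks by the study's methods (the names of the deposited puberty tables say 4 weeks), 6 per sort, and the adult group from female mice of 10 weeks, 4 per sort. In both groups cells carrying blood or endothelial surface proteins were excluded during the sort. Each of the 221 puberty and 223 adult cells was captured and amplified on its own on a Fluidigm C1, a microfluidic chip with 1 cell per chamber, and the labels name no animal and no capture run, so that each stage counted as 1 sample. The precision given below is therefore counting error only, and no test was run between groups of cells.

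Epithelial cells are held together by junctions that are stacked along their sides. Cadherins of neighbouring cells bind each other in the adherens junction, and the claudins and occludin form the strands of the tight junction, which lies nearest to the lumen and closes the space between cells. Tjp1, also called ZO-1, is a scaffold protein on the inner face of those strands. In the mammary duct, luminal cells face the lumen and carry the tight junctions, while the basal myoepithelial layer lies against the basement membrane and is known for P-cadherin, the product of Cdh3.

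Cells with at least 100000 read pairs and 1500 detected genes were retained, which left 171 puberty cells (77.4%) and 152 adult cells (68.2%). The retained cells held 101473 to 1354392 read pairs at puberty and 100889 to 1049772 in the adult. Each was thinned at random to 100000 read pairs, so that 1 read in a cell equals 10 CPM, where CPM is a gene's counts scaled to a fixed library total, and a level below is the CPM of the summed reads of a group. Epcam, the surface protein of epithelium, had a read in 97.1% of the puberty and 96.7% of the adult cells.

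The adult cells whose titles number them 48 to 188 stood apart from the other adult cells before any junction gene was examined. Rn7sk, the 7SK small nuclear RNA, had a read in all 107 retained cells of that run, in 8 of the other 45 adult cells and in 35 of the 171 puberty cells. The run and the other adult cells are therefore given side by side wherever an adult value rests on one of them. Reads of fibroblast genes were also present: 6 of 6 fibroblast markers were detected at both stages, with summed levels per cell from 0 to 38150 CPM (median 0) at puberty and from 0 to 26740 CPM (median 10) in the adult. Cells with 3 or more of these markers numbered 26 of 323. All 6 endothelial markers had reads at both stages with a median of 0 CPM per cell and a maximum of 4210 CPM. Of the 6 immune markers, Ptprc, Laptm5 and Tyrobp were at 0 in every puberty cell and Cd52 and Cd3e in every adult cell, and the summed level had a median of 0 CPM at both stages.

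The retained cells were then ordered by a lineage score, the mean log2(CPM + 10) of 8 basal markers less that of 8 luminal markers, none of which is a junction gene described here. Cells at 1 or above are called basal-marker cells, cells at -1 or below luminal-marker cells, and those between mixed-marker cells. These are ranges of a score and not cell types, and 6 puberty and 13 adult cells lay within 0.25 of a boundary. Puberty held 40 basal-marker, 25 mixed-marker and 106 luminal-marker cells, and the adult stage held 70, 31 and 51. As the score requires, the markers were far apart: at puberty Krt18, a luminal keratin, had a level of 5131 CPM in luminal-marker and 360 CPM in basal-marker cells, and Acta2, smooth muscle actin, had 256 and 8460 CPM. The share of basal-marker cells was 53.3% in the adult run 48 to 188, 28.9% in the other adult cells and 23.4% at puberty, so that a difference between whole stages also carries a difference in this mixture. In such pooled sums, fewer cells of a class and less RNA per cell cannot be told apart.

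The levels of the 9 genes can be ranked only after division by transcript length. At puberty the order in CPM per kilobase was Cldn4 (182), Cldn7 (109), Cldn3 (104), Cldn8 (30.6), Ocln (27.5), Cdh1 (22.1), Cldn1 (15.3), Tjp1 (10.7) and Cdh3 (8.56). The 95% counting intervals of Cldn7 and Cldn3 overlapped (105 to 114 and 100 to 109), and those of Cldn8 and Ocln met at 28.9. The adult order was Cldn3 (176), Cldn7 (98.3), Cldn4 (69.7), Ocln (30.6), Cldn8 (20.8), Cdh1 (18.5), Cdh3 (16.1), Cldn1 (9.50) and Tjp1 (6.13), in which the intervals of Cldn8 and Cdh1 overlapped (19.3 to 22.4 and 17.5 to 19.6). The claudins Cldn3, Cldn4 and Cldn7 held the first places at both stages, but the adult order depended on the cells taken. In the run 48 to 188 Ocln followed these 3 with 43.1 CPM per kilobase, and in the other adult cells it was last with 0.905, behind Cldn7 (98.0), Cldn3 (70.9), Cldn8 (29.9), Cldn4 (23.1), Cdh3 (11.1), Tjp1 (9.03), Cdh1 (5.64) and Cldn1 (2.33). Single cells also weighed on it: without its highest cell the adult level of Ocln was 17.2, that of Cdh3 6.45, that of Cldn1 5.37 and that of Cldn8 12.4, and the puberty level of Cdh3 was 4.34. The first 3 places were the same without the highest cells at both stages.

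Most cells carried only some of these genes at this depth. The number of the 9 genes with a read had a median of 4 in the puberty cells (range 0 to 7) and of 3 in the adult cells (range 0 to 8). Luminal-marker cells had medians of 5 at puberty and 3 in the adult, and basal-marker cells a median of 2 at both stages. No member was detected in 7 of the 40 puberty and 5 of the 70 adult basal-marker cells, whereas each of the 106 puberty and 51 adult luminal-marker cells had at least 1.

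**Figure D1:**
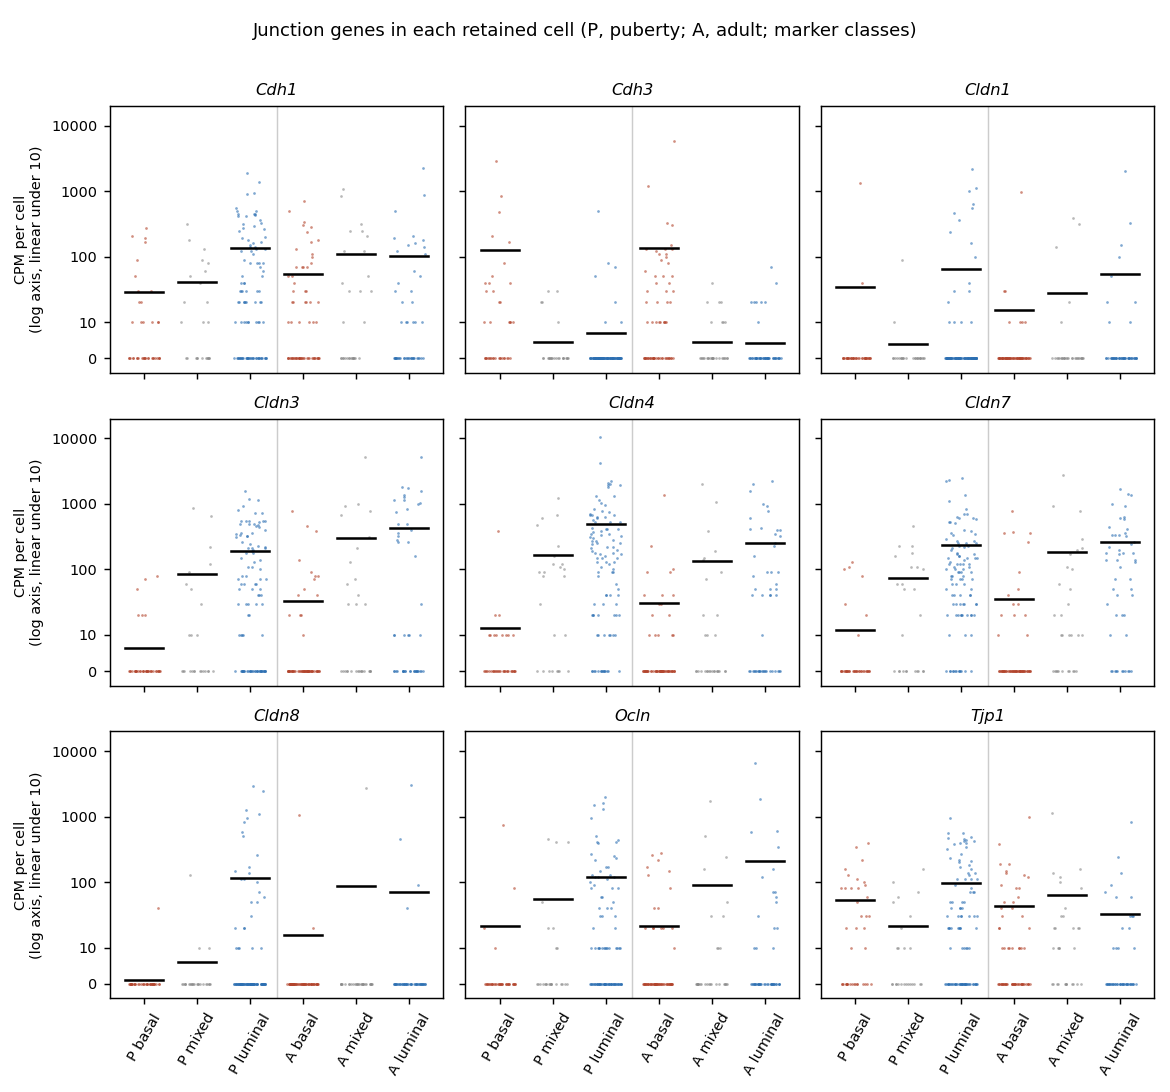
Each point is 1 retained cell and its height the CPM of the gene in that cell, on an axis that is logarithmic above 10 CPM and linear below, for the basal-marker, mixed-marker and luminal-marker cells of puberty (P) and of the adult stage (A). The black line is the level of the group. Cdh3 is the gene with its high cells in the basal-marker groups, where the levels were 125 and 134 CPM, and Cldn3, Cldn4 and Cldn7 have theirs in the luminal-marker groups.

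The first question was how the junction genes divide between the luminal and the basal side of the epithelium. The genes were chosen with earlier results of these data known. The study's own signature lists, from earlier population-level data, already hold Cldn1, Cldn3, Cldn4, Cldn7, Cldn8 and Ocln as luminal and Cdh3 as basal genes. The counts below therefore describe these genes and do not test their side. At puberty 6 of the 9 genes were more than 2-fold higher in luminal-marker than in basal-marker cells and 1 was more than 2-fold lower, when 26.9% of the 7877 genes that reached 20 CPM in either group were past 2-fold higher and 24.3% lower. In the adult the counts were again 6 and 1, against 29.2% and 30% of 7514 genes. The median log2 ratio of luminal over basal was 2.5 for the 9 genes and 0.05 for all genes at puberty, and 2.19 and 0.00 in the adult. In the run 48 to 188 alone 6 of the 9 were higher and 2 lower, against 27.6% and 36.2% of 7025 genes, and in the other adult cells 5 and 1, against 39.8% and 33.9% of 6990 genes. Without the 26 cells that carried 3 or more fibroblast markers, which made up 17.5% of the puberty and 10% of the adult basal-marker cells against 4.72% and 1.96% of the luminal-marker cells, the counts stayed at 6 and 1 in both stages.

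Among the cadherins the division ran in opposite directions. Cdh3 (chr8:106510852-106556911, GRCm38.p6), P-cadherin, ranged per cell from 0 to 2900 CPM (median 5) in the puberty basal-marker cells and from 0 to 500 CPM (median 0) in the luminal-marker cells. In the adult the ranges were 0 to 5870 CPM (median 10) and 0 to 70 CPM (median 0). The groups overlapped at 0, since 50.0% (95% exact interval 33.8 to 66.2) of the puberty and 51.4% (39.2 to 63.6) of the adult basal-marker cells had a read, and 6.60% (2.70 to 13.1) and 15.7% (7.02 to 28.6) of the luminal-marker cells. The log2 ratio of luminal over basal was -4.16 (95% counting interval -4.53 to -3.81) at puberty and -4.96 (-5.64 to -4.35) in the adult. A single adult cell gave 62.4% of the Cdh3 reads of its class. Without the highest cell of each class the ratios were -4.56 and -4.09. The same direction was found in the run 48 to 188 (-5.54) and in the other adult cells (-4.51).

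Cdh1 (chr8:106603350-106670247), E-cadherin, was spread over both classes. It ranged from 0 to 270 CPM (median 0) in puberty basal-marker and from 0 to 1890 CPM (median 20) in puberty luminal-marker cells, with a read in 40.0% (24.9 to 56.7) and 66.0% (56.2 to 75.0) of them. In the adult it had a read in 48.6% (36.4 to 60.8) of the basal-marker and 47.1% (32.9 to 61.5) of the luminal-marker cells, so that the shares could not be distinguished at this number of cells. The log2 ratio was 2.26 (1.99 to 2.55) at puberty and 0.90 (0.71 to 1.09) in the adult, where 1 luminal-marker cell of 2270 CPM gave 43.6% of the reads of its class and the ratio without the highest cells was 0.38. It was past 2-fold in the run 48 to 188 (1.39, 1.18 to 1.59) and not in the other adult cells (0.34, -0.31 to 1.01). Cdh1 and Cdh3 lie next to each other on the chromosome, 46438 bases apart with 3 other annotated genes in the gap. Both had a read in 36 of the 323 cells (11.1%), where the product of their shares would give 44.7, Cdh1 alone in 136 (42.1%) and Cdh3 alone in 48 (14.9%). In the basal-marker cells both were present in 9 of 40 at puberty and in 16 of 70 in the adult, where the product would give 8 and 17.5.

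The claudins Cldn3, Cldn4 and Cldn7, sealing claudins of many simple epithelia, were the most clearly luminal of the abundant genes. Cldn4 (chr5:134945123-134946934) had a read in 85.8% (77.7 to 91.9) of the puberty luminal-marker cells, which ranged from 0 to 10470 CPM with a median of 170, and in 27.5% (14.6 to 43.9) of the basal-marker cells, which ranged from 0 to 390 CPM with a median of 0. Its log2 ratio was 5.26 (4.86 to 5.68) at puberty and 3.05 (2.84 to 3.27) in the adult, where the shares were 58.8% and 24.3%. Cldn7 (chr11:69964779-69967886) had a read in 87.7% (79.9 to 93.3) of the puberty and 78.4% (64.7 to 88.7) of the adult luminal-marker cells, with medians of 90 and 140 CPM, against 17.5% and 21.4% of the basal-marker cells, with medians of 0. Its log2 ratios were 4.29 (3.88 to 4.73) and 2.92 (2.72 to 3.12). Cldn3 (chr5:134986214-134987476) was found in 67.0% (57.2 to 75.8) and 54.9% (40.3 to 68.9) of the luminal-marker cells and in 15.0% and 21.4% of the basal-marker cells, with ratios of 4.87 (4.32 to 5.49) and 3.73 (3.53 to 3.93). The annotation places Wbscr25 over Cldn3, and since the use of strand in counting is not given in the sources used here, reads of the overlap cannot be assigned with certainty. All 3 claudins had higher ratios than 2 on the log2 scale in the run 48 to 188 and in the other adult cells taken alone.

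These 3 claudins were also found together. At least 1 read of each was present in 69 of 171 puberty cells (40.4%) and in 31 of 152 adult cells (20.4%), and within the luminal-marker cells in 60 of 106 (56.6%) and 18 of 51 (35.3%). The product of the 3 shares would give 40.8 puberty and 11.1 adult cells, and 53.5 and 12.9 of the luminal-marker cells. None of the 3 was detected in 3 of 106 and 6 of 51 luminal-marker cells, and in 24 of 40 and 42 of 70 basal-marker cells, which is 60% in both stages. In the basal-marker cells all 3 were present in 2 puberty and 6 adult cells, where the product would give 0.289 and 0.781. Cldn3 and Cldn4 are neighbours on chromosome 5, with 39279 bases and no annotated gene between them.

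Ocln (chr13:100496504-100552718), occludin, a tight junction strand protein, followed the same side. It had a read in 50.9% (41.0 to 60.8) of the puberty and 33.3% (20.8 to 47.9) of the adult luminal-marker cells, with maxima of 2020 and 6550 CPM, and in 10.0% (2.79 to 23.7) and 22.9% (13.7 to 34.4) of the basal-marker cells, with maxima of 740 and 280 CPM. The log2 ratios were 2.5 (2.19 to 2.84) and 3.27 (3.02 to 3.53). A single adult luminal-marker cell gave 62.0% of the reads of its class, and without the highest cell of each class the adult ratio was 2.18. It was 3.85 in the run 48 to 188 and 1.64 (-0.56 to 4.85) in the other adult cells, where Ocln stayed under 20 CPM in both classes. Another annotated gene, LOC115488221, overlaps Ocln. Tjp1 (chr7:65296165-65527850), the scaffold, was the gene with the most even spread. A read was found in 55.0% (38.5 to 70.7) of the basal-marker and 60.4% (50.4 to 69.7) of the luminal-marker cells at puberty, and in 42.9% (31.1 to 55.3) and 31.4% (19.1 to 45.9) in the adult. Its log2 ratio was 0.86 (0.65 to 1.08) at puberty and -0.37 (-0.66 to -0.10) in the adult, within 2-fold both times. The run 48 to 188 (-1.47) and the other adult cells (1.32) went in opposite directions.

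Cldn1 and Cldn8 were present in few cells. Cldn1 (chr16:26356645-26371839), a barrier-forming claudin, had a read in 17.0% (10.4 to 25.5) of the puberty and 17.6% (8.4 to 30.9) of the adult luminal-marker cells and in 5.00% (0.611 to 16.9) and 10.0% (4.12 to 19.5) of the basal-marker cells. Its log2 ratio was 0.92 (0.66 to 1.19) at puberty and 1.81 (1.49 to 2.15) in the adult. In each stage 1 basal-marker cell, of 1350 and 970 CPM, held 97.1% and 90.7% of the basal reads, and without the highest cell of each class the ratios were 5.48 and 3.25. The run 48 to 188 gave 2.21 and the other adult cells 4.22 (1.64 to 9.57, from 1 basal read). Cldn8 (chr16:88560826-88563183), another tight junction claudin, had a read in 26.4% (18.3 to 35.9) of the puberty luminal-marker cells and in 1 of the 40 basal-marker cells, with a log2 ratio of 6.84 (5.48 to 8.72). In the adult it was detected in only 7 of 152 cells, of which 4 were luminal-marker, 1 mixed-marker and 2 basal-marker cells. The adult ratio of 2.19 (1.88 to 2.51) rested on 1 cell of each class. The luminal-marker cell, of 3040 CPM, lay outside the run 48 to 188. The basal-marker cell, of 1070 CPM, held 98.2% of the basal reads. Without these cells the luminal and basal levels were 5.00 and 0.123 CPM per kilobase, both from few reads. The ratio was -0.22 (-0.75 to 0.29) within the run, where Cldn8 stayed under 20 CPM in both classes.

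**Figure D2:**
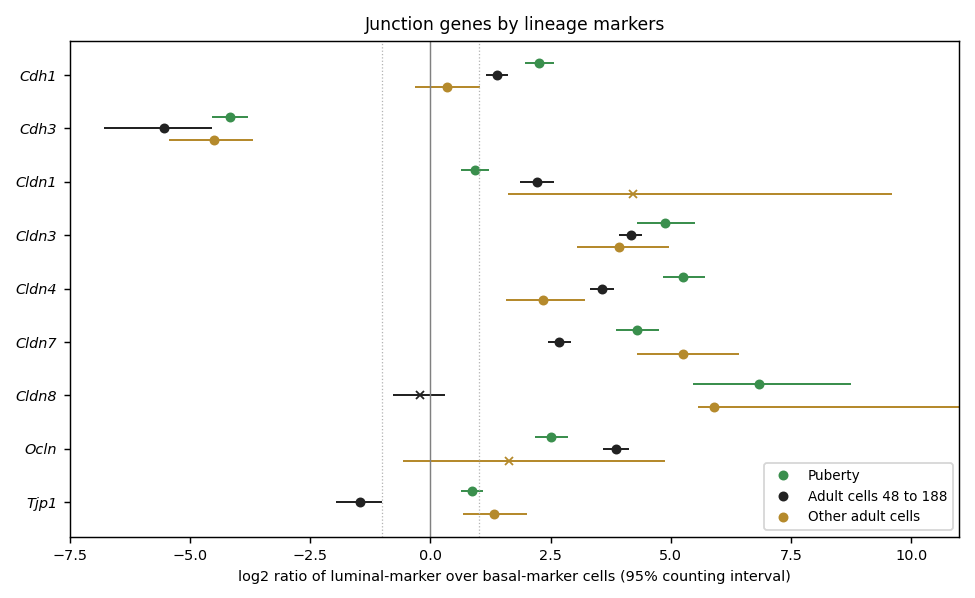
The horizontal axis is the log2 ratio of the level in luminal-marker over that in basal-marker cells, with the 95% counting interval as a line, for puberty, the adult run 48 to 188 and the other adult cells. Dotted lines mark 2-fold, a cross marks a gene under 20 CPM in both classes, and the interval of Cldn8 in the other adult cells has no upper bound because no basal-marker read was seen. Cdh3 lies below -4 in all 3 groups of cells and Cldn3, Cldn4 and Cldn7 lie above 2, while Tjp1 crosses from -1.47 to 1.32.

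For the 3 abundant claudins the level of the mixed-marker cells lay between those of the basal-marker and luminal-marker cells. Against luminal-marker cells, 8 of the 9 genes were past 2-fold lower in the mixed-marker cells at puberty, Cdh3 being the exception, and none was higher, with 27.4% and 23.4% of 7759 genes. In the adult 1 gene, Ocln, was lower and none higher, with 32.8% and 28.8% of 7412 genes. Against basal-marker cells 4 were higher and 3 lower at puberty, with 26.7% and 28.4% of 7694 genes, and 5 and 1 in the adult, with 25.9% and 31.2% of 7271 genes. Among these 5, Cldn8 had all its mixed-marker reads in 1 cell of 2740 CPM and 98.2% of its basal-marker reads in 1 cell. Ocln had 62.2% of its mixed-marker reads in 1 cell. At puberty Cldn4 had 12.8 CPM in basal-marker, 168 CPM in mixed-marker and 487 CPM in luminal-marker cells, Cldn7 had 12.0, 73.2 and 235 CPM, and Cldn3 had 6.50, 84.8 and 190 CPM. In the adult the same 3 values were 30.4, 135 and 252 CPM for Cldn4, 35.0, 185 and 265 CPM for Cldn7 and 32.7, 305 and 433 CPM for Cldn3. The highest adult mixed-marker cell gave 48.1% of the reads of its class for Cldn4, 47.5% for Cldn7 and 54.8% for Cldn3. The mixed-marker levels in the run 48 to 188 and in the other adult cells were 178 and 31.1 CPM for Cldn4. They were 250 and 27.8 CPM for Cldn7 and 386 and 106 CPM for Cldn3. Cdh3 in mixed-marker cells did not lie between its basal-marker and luminal-marker levels. Its level in mixed-marker cells was 4.40 CPM at puberty and 4.52 CPM in the adult, close to the 6.98 and 4.31 CPM of the luminal-marker cells, although 20.0% (6.83 to 40.7) and 25.8% (11.9 to 44.6) of the mixed-marker cells had a read. Fibroblast markers reached a median of 340 CPM per cell in the 9 mixed-marker cells of the other adult cells and of 5 CPM in the 22 of the run 48 to 188. A score near 0 can also come from low levels of both marker sets. The median geometric means of basal and luminal markers were 12.8 and 13 CPM in those 9 cells and 230 and 204 CPM in the 22. Endothelial markers had a read in 55.6% and 18.2% of them, and immune markers in 22.2% and 4.55%. The part of such cells in these values was not tested.

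The other genes of the junctions were taken as lists of whole families. The lists were written with earlier results of these data known, and their counts are set against the 26.9% of genes past 2-fold higher at puberty and 29.2% in the adult. Of 13 other claudins in the files, 4 reached 20 CPM at puberty and all 4 were higher in luminal-marker cells. In the adult 3 reached it and 2 were higher. Cldn6 was at 41.6 CPM in luminal-marker and 0.750 CPM in basal-marker cells at puberty, and at 40.4 and 9.14 CPM in the adult. Cldn10 had 182 and 54.0 CPM at puberty and 317 and 111 CPM in the adult. Cldn12 was within 2-fold in the adult (33.9 and 29.4 CPM) and just past it at puberty (54.7 and 24.8 CPM). Of 19 other tight junction genes, 12 of the 17 that reached 20 CPM were higher and 2 lower at puberty, and 8 of 16 were higher and 3 lower in the adult. Crb3, a polarity protein of the apical membrane, had no read in the 40 puberty basal-marker cells, which allows a share of up to 7.5%, and 43.1 CPM in the luminal-marker cells, at least 5.85 higher on the log2 scale when 3 reads are set in place of 0. In the adult it had 0.571 and 106 CPM. Cgn, cingulin, a tight junction plaque protein, had 0.5 and 145 CPM at puberty and 11.4 and 86.9 CPM in the adult. Marveld3, a relative of occludin, had 6.00 and 70.2 CPM at puberty and 8.43 and 53.5 CPM in the adult.

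The adherens junctions and desmosomes were less one-sided. Of the 9 adherens junction genes, 3 were past 2-fold higher and 1 lower in luminal-marker cells at puberty, and 5 and 3 in the adult, where the run 48 to 188 had 6 and 3 (median log2 ratio 1.42) and the other adult cells 3 and 4 (median -0.49). The nectins, adhesion proteins that bind across neighbouring cells, lay on opposite sides: Nectin4 had 56.8 CPM in luminal-marker and 6.50 CPM in basal-marker cells at puberty and 38.4 and 2.00 CPM in the adult, whereas Nectin1 had 5.47 and 40.0 CPM and then 5.10 and 92.9 CPM. Nectin3 had 31.0 and 40.2 CPM at puberty, within 2-fold, and 1.76 and 29.6 CPM in the adult. Of 9 desmosome genes, 2 were higher and 2 lower among the 7 that reached 20 CPM at puberty, and 2 higher and 4 lower in the adult. Pkp2, a plakophilin, and Dsc2, a desmosomal cadherin, were on the luminal side, with log2 ratios of 6.60 (4.11 to 11.91, from 1 basal read) and 3.19 at puberty and 2.71 and 3.59 in the adult. Perp was on the basal side, with 1014 CPM in basal-marker and 95.0 CPM in luminal-marker cells at puberty and 630 and 225 CPM in the adult. Of 8 other cadherins only Cdh13 reached 20 CPM, and it was lower in luminal-marker cells (log2 ratio -4.51 at puberty and -2.59 in the adult). In the other adult cells Cdh13 stayed under 20 CPM in both classes.

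Of the 5 genes whose products bind or process claudins or their partner Epcam, all 5 were past 2-fold higher in luminal-marker cells at puberty and 2 were in the adult. St14, the membrane protease matriptase, had 74.3 CPM in luminal-marker and 1.75 CPM in basal-marker cells at puberty and 70.6 and 39.6 CPM in the adult, the second pair within 2-fold, and its inhibitor Spint1 had 153 and 32.8 CPM and then 85.9 and 40.7 CPM. Among 6 repressors of epithelial genes, Snai2 was the 1 gene read in at least 10% of the retained cells, and it was on the basal side: 215 CPM against 8.49 CPM at puberty and 64.0 CPM against 0.392 CPM in the adult. Of 7 activators, 2 of the 5 that reached 20 CPM were higher in luminal-marker cells at both stages, and Elf3 was among the higher ones. Grhl2 was even, with 69.1 and 72.2 CPM at puberty and 21.2 and 25.3 CPM in the adult, as was Klf5, with 57.1 and 32.8 CPM and then 42.5 and 37.0 CPM. Elf3 (5.25 and 2.69 on the log2 scale) belongs to the luminal markers that set the score. Its place in the count of activators was thus fixed in advance and is no finding.

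The adult values of several of these genes differed between the run 48 to 188 and the other adult cells. The log2 ratio of luminal over basal was 1.55 and -1.56 for Cldn12, 6.00 and 0.36 for Cgn, -0.83 and -2.98 for Perp, 0.43 and 2.07 for Spint1 and -2.20 and 0.95 for Grhl2. St14 was even in the run, at 48.6 CPM in both classes, and had no read in the basal-marker cells of the others. Pkp2 was at 11.8 and 8.07 CPM in the run and had no basal read in the others, and Crb3 was at 193 CPM in the luminal-marker cells of the run and at 1.30 CPM in those of the others. Cldn10, Marveld3, Nectin4, Nectin1, Nectin3, Dsc2 and Snai2 were past 2-fold in the same direction in both, and Cldn6 was so in the run (2.29) and by at least 3.29 in the others. Of the tight junction genes, 6 were higher and 1 lower in the run and 7 and 3 in the others, and of the desmosome genes 1 and 2 and then 2 and 4. Of the genes that bind or process claudins or Epcam, 2 and then 4 were higher. Of the activators, a list that holds Elf3, 2 were higher and 2 lower in the run and 3 and none in the others.

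Snai2 encodes Slug, which binds E-boxes of the form CAGGTG or, on the other strand, CACCTG, and the RefSeq promoters (GRCm38.p6, from 250 bases before to 50 bases after each start) were searched for these letters because the 3 abundant claudins shared a side. Promoters were found for 6 of the 9 genes. None was available for Cdh1, Cdh3 and Cldn8, which were therefore not searched. Of all 32851 RefSeq windows of this length, 20.2% held at least 1 copy and 2.9% held 2 or more. The windows of Cldn1 and Tjp1 held none. The 250 bases before the start of the 3 claudins are printed 5′ to 3′ on the strand of the gene, with any copy in capitals. They span chr5:134985964-134986213 (plus strand) for Cldn3, chr5:134946935-134947184 (minus strand) for Cldn4 and chr11:69964529-69964778 (plus strand) for the first of the starts of Cldn7.
Cldn3: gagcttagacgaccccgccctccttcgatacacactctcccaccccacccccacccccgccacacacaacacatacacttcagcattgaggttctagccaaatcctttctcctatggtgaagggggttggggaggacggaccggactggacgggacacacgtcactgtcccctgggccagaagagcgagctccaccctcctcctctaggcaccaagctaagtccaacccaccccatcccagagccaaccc
Cldn4: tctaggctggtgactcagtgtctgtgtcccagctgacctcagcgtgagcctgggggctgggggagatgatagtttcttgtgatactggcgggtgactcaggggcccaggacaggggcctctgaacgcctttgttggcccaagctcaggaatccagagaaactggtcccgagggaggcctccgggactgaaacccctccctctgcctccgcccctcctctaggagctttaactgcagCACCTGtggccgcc
Cldn7: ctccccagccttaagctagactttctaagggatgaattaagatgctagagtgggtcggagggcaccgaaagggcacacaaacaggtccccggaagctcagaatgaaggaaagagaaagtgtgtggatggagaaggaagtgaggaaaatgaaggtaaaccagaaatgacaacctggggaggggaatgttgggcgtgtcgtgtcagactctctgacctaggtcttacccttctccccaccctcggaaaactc

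Within these bases only Cldn4 carried a copy, 14 bases before its start. Copies at or after a start, or before a second start that lies inside the gene, are shown in windows of 30 bases, again with the motif in capitals. The motif begins 12 bases after the start for Cldn4, 32 for Cldn3 and 8 for the first start of Ocln, and 97 and 57 bases before the second start of Cldn7. The second start of Ocln had a copy 68 bases before it, and 213 bases before it stands the copy already counted at the first start.
Cldn4 after start: cctttcttgttgCAGGTGcaggcaggaaag
Cldn3 after start: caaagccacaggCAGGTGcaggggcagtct
Cldn7 second start, 97 before: tttcttcctcttCACCTGgacgaggagggg
Cldn7 second start, 57 before: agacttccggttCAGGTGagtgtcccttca
Ocln first start: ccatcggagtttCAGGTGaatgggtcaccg
Ocln second start, 68 before: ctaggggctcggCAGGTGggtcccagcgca

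A copy was thus present in at least 1 window of Cldn3, Cldn4, Cldn7 and Ocln. The share of 20.2% is per window and not per gene. Cldn7 and Ocln had 2 windows each, and the first window of Cldn7 held no copy. The match is a description of letters and was not tied to binding in these cells.

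Within the luminal-marker cells the question was how the genes divide between the hormone-sensing mature cells and the progenitors. The cells were split by the difference of the mean log2(CPM + 10) of 8 mature luminal markers, such as Esr1 and Pgr, and 8 luminal progenitor markers, such as Elf5 and Kit, at 0.5 and -0.5. This gave 83 mature luminal-marker and 20 luminal progenitor-marker cells at puberty and 27 and 23 in the adult, with 3 and 1 cells in neither. The median number of genes detected per cell was 2951 in the mature and 2163 in the progenitor-marker cells at puberty, and 2201 and 2467 in the adult, and the part of this in the values was not tested. Of the 9 genes, 1 was past 2-fold higher in the mature and 3 in the progenitor cells at puberty, against 39.2% and 23.8% of 7484 genes, and 3 and 3 were in the adult, against 38.3% and 29.3% of 6873 genes.

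Cldn1 lay on the progenitor side at both stages. At puberty it ranged from 0 to 2170 CPM (median 35) in the progenitor-marker cells, where 13 of 20 had a read, and from 0 to 1020 CPM (median 0) in the mature cells, where 5 of 83 had one. In the adult it was read in 8 of 23 progenitor-marker and 1 of 27 mature cells, with maxima of 2050 and 20 CPM. The shares were 65.0% (40.8 to 84.6) and 6.02% (1.98 to 13.5) at puberty and 34.8% (16.4 to 57.3) and 3.70% (0.0937 to 19.0) in the adult. The levels were 295 CPM against 12.9 CPM and 118 CPM against 0.741 CPM, and the log2 ratio of mature over progenitor was -4.52 (-4.83 to -4.22) and -7.32 (-10.37 to -5.45). A single adult progenitor-marker cell gave 75.4% of the reads, and the ratio without the highest cells was -4.72. Only 5 progenitor-marker cells lay outside the run 48 to 188 and 1 of them had reads.

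Cldn8 lay on the mature side at puberty. It was read in 23 of 83 mature luminal-marker cells (27.7%, 18.4 to 38.6), with a maximum of 2980 CPM, and in 3 of 20 progenitor-marker cells (15.0%, 3.21 to 37.9), with a maximum of 140 CPM, and the levels were 143 and 9.00 CPM, a log2 ratio of 3.99 (3.32 to 4.75). Median levels were 0 in both. In the adult 3 of 27 mature and 1 of 23 progenitor-marker cells had a read. The adult ratio of 2.55 (2.10 to 3.03) came from the cell of 3040 CPM, and within the run 48 to 188 the only read-bearing luminal cell was a progenitor-marker cell of 460 CPM. Cldn1 and Cldn8 were both read in 4 of the 171 puberty cells, where the product of their shares would give 4.12, and in none of the 152 adult cells, where it would give 0.967, so that the overlap does not set them apart.

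Cldn3 was higher in the progenitor-marker cells at both stages, with levels of 360 and 155 CPM at puberty and 765 and 166 CPM in the adult. The log2 ratios were -1.21 (-1.34 to -1.08) and -2.21 (-2.36 to -2.06), while the shares of cells with a read were similar, 70.0% and 66.3% at puberty and 60.9% and 51.9% in the adult. Cldn7 was past 2-fold at puberty alone (447 and 186 CPM, -1.27) and had 252 and 286 CPM in the adult (0.18). In the run 48 to 188 and in the other adult cells the Cldn3 ratio was -1.70 and -1.38, and that of Cldn7 0.81 and -0.77. Cldn4 was within 2-fold at both stages (-0.45 and -0.47), with 0.50 in the run and -1.11 in the other adult cells. Cdh1 had 184 and 124 CPM at puberty and 154 and 61.9 CPM in the adult, with a ratio of -1.32 (-1.59 to -1.05) in the adult, in which 64.1% of the progenitor reads came from 1 cell. It was -0.78 in the run 48 to 188 and 0.58 in the other adult cells. Ocln (1.15) and Tjp1 (1.21) were past 2-fold higher in the adult mature cells. The Ocln ratio was -0.23 without the highest cells, and the Tjp1 ratio was -1.96 within the run 48 to 188 and 3.51 in the other adult cells. Cdh3 was at or under 7.95 CPM in every one of these groups.

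**Figure D3:**
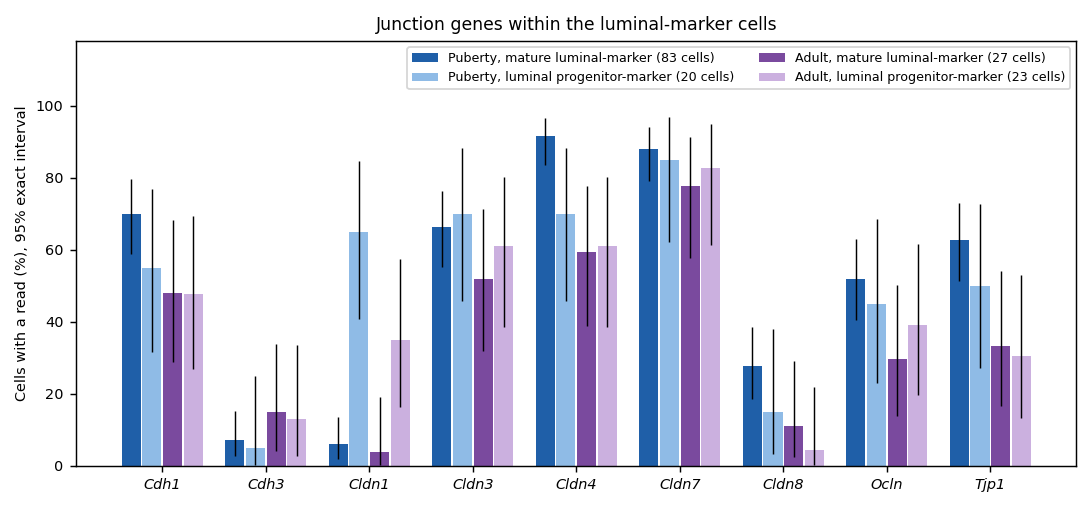
Bars give the share of mature luminal-marker and luminal progenitor-marker cells with at least 1 read of each gene at puberty and in the adult, and lines the 95% exact binomial interval. Cldn1 is the gene whose bars differ most between the states at each stage, 65.0% for progenitor-marker against 6.02% for mature cells at puberty and 34.8% against 3.70% in the adult, where its intervals overlap as do those of every other gene at both stages.

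The second question was how the genes differ between puberty and adulthood. Over all retained cells, 1 of the 9 genes was past 2-fold higher at puberty and none was past 2-fold lower, when 20.2% of 7825 genes were higher and 14.8% lower. The gene was Cldn4. It ranged from 0 to 10470 CPM (median 40) in the puberty cells and from 0 to 2270 CPM (median 0) in the adult cells, with a read in 69.6% (62.1 to 76.4) and 39.5% (31.6 to 47.7) of them. Its levels were 330 and 126 CPM, a log2 ratio of puberty over adult of 1.38 (1.31 to 1.46). The ratio was 1.03 against the run 48 to 188 and 2.98 against the other adult cells. Against the run 2 of the 9 genes were past 2-fold higher at puberty (Cldn4 and Tjp1) and 2 lower (Cdh3 and Cldn3), with 26.4% and 16.1% of 7787 genes, and against the other adult cells 4 were higher (Cdh1, Cldn1, Cldn4 and Ocln) and none lower, with 28.5% and 20.6% of 7879 genes. Within luminal-marker cells the Cldn4 ratio was 0.95 (0.86 to 1.04), and within basal-marker cells, where the levels were 12.8 and 30.4 CPM and 1 adult cell gave 63.4% of the reads, it was -1.25 (-1.73 to -0.81). The luminal-marker level of Cldn4 was 487 CPM at puberty, 408 CPM in the run 48 to 188 and 62.6 CPM in the other adult cells. Its basal-marker levels were 12.8, 34.6 and 12.3 CPM.

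The remaining ratios of puberty over adult lay between -0.91 and 0.80. Cdh3 was at 34.2 CPM at puberty and 64.2 CPM in the adult (-0.91, -1.06 to -0.76), and within the basal-marker cells, of which the adult had more, it was -0.10 (-0.26 to 0.05). Cldn3 was at 132 and 222 CPM (-0.75), but had a read in 51.5% (43.7 to 59.2) of the puberty and 37.5% (29.8 to 45.7) of the adult cells. The median over cells with a read was 125 CPM at puberty and 260 CPM over all adult cells. It was 295 CPM in the run 48 to 188, where fewer cells thus carried more reads each. In the other adult cells it was 30 CPM. Cldn3 had 278 and 89.6 CPM in these parts, and its stage ratio against the other adult cells was 0.56. Tjp1 was at 75.8 and 43.6 CPM (0.80, 0.66 to 0.94), and within luminal-marker cells at 97.2 and 32.7 CPM (1.57, 1.33 to 1.81), with a read in 60.4% and 31.4% of the cells. Cldn8 was read in 18.7% (13.2 to 25.4) of the puberty and 4.61% (1.87 to 9.26) of the adult cells, although its levels of 72.1 and 49.1 CPM were within 2-fold. Cdh1 (0.25), Cldn7 (0.15), Ocln (-0.15) and Cldn1 (0.68) were within 2-fold as well.

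Within classes more of the 9 genes passed 2-fold. In basal-marker cells 1 was higher and 3 were lower at puberty, against 28.6% and 22.8% of 7478 genes. Cldn1 was the higher one (1.18, with 97.1% of its puberty reads in 1 cell), and Cldn3 (-2.33), Cldn4 (-1.25) and Cldn7 (-1.54) were the lower ones. In the run 48 to 188 and the other adult cells Cldn3 had 38.2 and 8.46 CPM, against 6.5 CPM at puberty. Cldn4 had 34.6 and 12.3 CPM, against 12.8 CPM, and Cldn7 41.4 and 6.92 CPM, against 12 CPM. Cldn1 had 18.6 and 0.769 CPM, against 34.8 CPM. The adult basal-marker cells carried their 8 luminal markers at a geometric mean with a median of 60.5 CPM and the puberty ones at 30.1 CPM, and the part of this in the claudin levels was not tested. Cldn8, at 1.00 CPM at puberty and 15.6 CPM in the adult, did not reach 20 CPM in either group. In luminal-marker cells 1 was higher (Tjp1, 1.57) and 1 lower (Cldn3, -1.19), against 29.1% and 20.2% of 7571 genes. Cldn3 had 190 CPM at puberty, 682 CPM in the run 48 to 188 and 129 CPM in the other adult cells. Its direction thus differed between the adult parts, whereas Tjp1, at 97.2, 17.1 and 51.7 CPM, was lower in both. In the progenitor-marker cells Cldn1 (1.32), Cldn4 (1.05) and Tjp1 (1.73) were higher and Cldn3 (-1.09) was lower, against 35.9% and 31.5% of 6727 genes. Cldn3 had 360 CPM at puberty, 906 CPM in the run and 258 CPM in the 5 other adult cells. Cldn1 had 295, 133 and 66 CPM, Cldn4 624, 355 and 112 CPM, and Tjp1 65, 23.3 and 6 CPM. In the mature luminal-marker cells Cdh1 (1.01), Cldn4 (1.06) and Tjp1 (1.15) were higher and Ocln (-1.13) was lower, against 33.6% and 22.7% of 7401 genes. The Ocln direction rested on 1 adult cell of 6550 CPM, which held 85.8% of the adult reads. Once the top cell was removed from both groups, Ocln was higher at puberty, at 33.2 against 13 CPM per kilobase. A read of it was found in 51.8% of the puberty and 29.6% of the adult mature cells. Ocln had 129 CPM at puberty, 752 CPM in the run and 6.47 CPM in the other adult cells. In the same order Cldn4 had 458, 503 and 51.8 CPM, Cdh1 124, 111 and 32.9 CPM, and Tjp1 100, 6 and 68.2 CPM. The directions of Ocln and Cldn4 thus differed between the adult parts, and Cdh1 was close to its puberty level in the run. A single adult mature cell gave 52.1% of the Cdh1 reads and another 68.9% of the Tjp1 reads. With 9 genes the counts past 2-fold within classes are small, and they lie close to what the shares of all genes would give.

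The adult value of several genes depended on the cells that were taken. In the run 48 to 188 against the other adult cells, 5 of the 9 genes were past 2-fold higher and none lower, against 26.4% and 28.4% of 7661 genes. Ocln stood furthest apart. It was read in 39 of 107 cells of the run (36.4%, 27.4 to 46.3) at 137 CPM, and in 4 of 45 other adult cells (8.89%, 2.48 to 21.2) at 2.89 CPM, of which the highest had 60 CPM. Cdh1 was read in 58.9% (49.0 to 68.3) and 22.2% (11.2 to 37.1), at 106 and 24.9 CPM, and the puberty cells (57.9%, 97.4 CPM) lay with the run. Cldn1 had 40.6 and 7.56 CPM, Cldn3 had 278 and 89.6 CPM and Cldn4 had 162 and 41.8 CPM. Cldn7 was at 143 and 142 CPM, with a read in 45.8% and 57.8% of the cells. The median number of genes detected per cell after thinning was 2865 in the run and 2191 in the other adult cells, and 2804 at puberty, and the basal-marker share differed as given above. Within luminal-marker cells alone Ocln was still at 373 CPM in the run and 4.78 CPM in the other adult cells. The labels name no capture run or animal, so the source of the cells and their state cannot be told apart here.

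**Figure D4:**
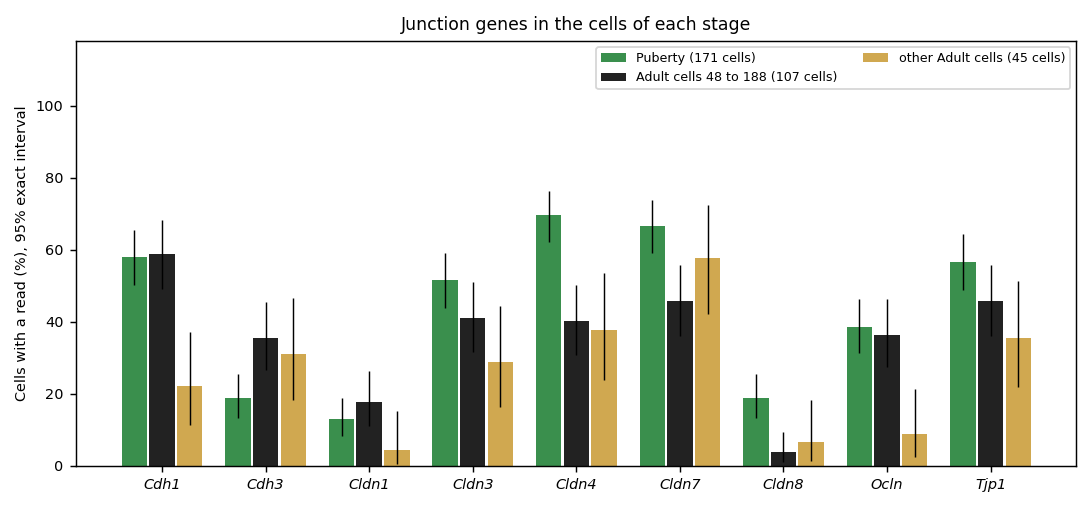
Bars give the share of retained cells with at least 1 read of each gene for puberty, the adult cells 48 to 188 and the other adult cells, and lines the 95% exact binomial interval. Cldn4 was read in 69.6% of the puberty cells and in 40.2% and 37.8% of the adult groups, whereas Cdh1 and Ocln are low in the other adult cells alone (22.2% and 8.89%).

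Across the cells of a stage the genes were compared in pairs by Spearman correlation of the thinned counts, as a description. The cells of a stage share a sample, and zeros are many. The highest values joined the 3 abundant claudins: Cldn4 and Cldn7 had 0.55 over 171 puberty and 0.52 over 152 adult cells, Cldn3 and Cldn7 had 0.49 and 0.46, and Cldn3 and Cldn4 had 0.45 and 0.38. Ocln was next, with 0.43 and 0.27 to Cldn4. Within the luminal-marker cells alone these values were lower, 0.32 and 0.24 for Cldn4 and Cldn7 and 0.30 and 0.33 for Cldn3 and Cldn7. Within the basal-marker cells, where most counts were 0, Cldn3 and Cldn7 had 0.75 over 40 puberty and 0.36 over 70 adult cells, Cldn4 and Cldn7 had 0.15 and 0.62, and Cldn3 and Cldn4 had 0.06 and 0.30. At puberty Cdh3 had its lowest values with Ocln (-0.33) and Cldn7 (-0.32), and in the adult with Cldn7 (-0.28) and Cldn3 (-0.23). Cdh1 stayed between -0.12 and 0.28 with every other member, and Cdh1 with Cdh3 had -0.12 and -0.05.

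**Figure D5:**
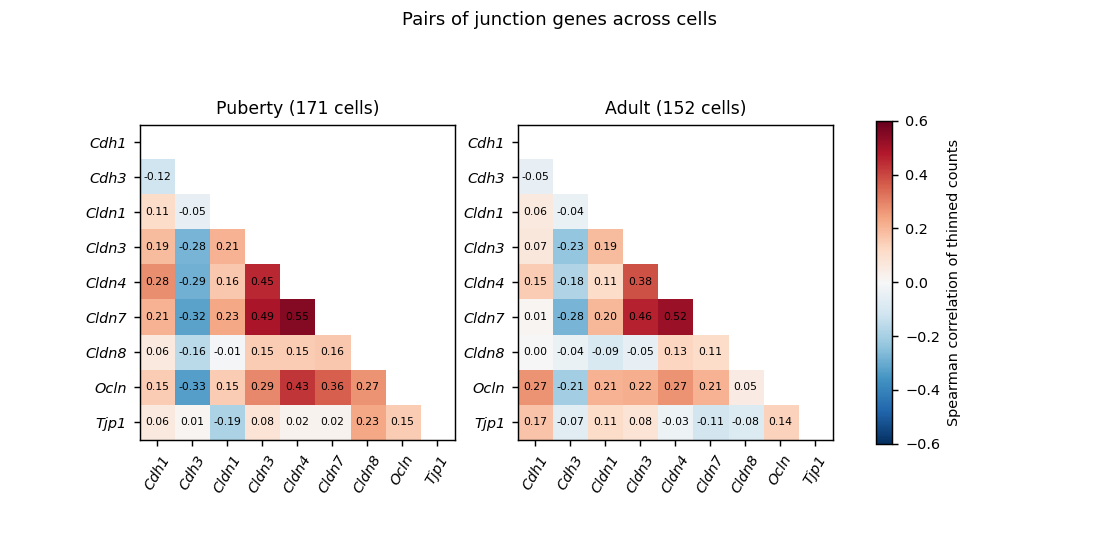
Each square is the Spearman correlation of the thinned counts of a pair of genes across the 171 puberty or the 152 adult cells, red for positive and blue for negative values. Cldn3, Cldn4 and Cldn7 form the reddest block at both stages, from 0.38 to 0.55, and the Cdh3 squares are mostly blue.

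Among the 7562 genes read in at least 10% of the cells, the 3 with the highest mean correlation over the stages were named for each member. For Cldn4 they were Krt18 (0.57), Krt19 (0.54) and Cldn7 (0.54), for Cldn7 they were Krt18 (0.59), Krt19 (0.57) and Cldn4 (0.54), and for Cldn3 they were Cldn7 (0.47), Krt18 (0.43) and Krt19 (0.42), where Krt18 and Krt19 are keratins of luminal cells and belong to the luminal markers. For Cdh3 they were Col4a1 (0.42), a basement membrane collagen, and the smooth muscle genes Cnn1 (0.41) and Acta2 (0.41). For Cldn1 they were the progenitor marker Wfdc18 (0.45) and the transporters Slc5a8 (0.45) and Slc28a3 (0.39). Ocln was joined by Hbp1 (0.36), Clu (0.35) and Cldn4 (0.35), Cdh1 by Znhit6 (0.36), Lin7c (0.33) and Rnh1 (0.32), Tjp1 by Wsb1 (0.32), Ranbp9 (0.28) and Wnk1 (0.27), and Cldn8 by Tspan13 (0.30), Tph1 (0.29) and Rpp21 (0.28). The values for these last 4 members are weak and are given without any reading.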

How the data were processed

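Per the labels and the study's methods, single cells were captured on a Fluidigm C1, where polyadenylated RNA was turned into cDNA and amplified. Nextera XT libraries were sequenced in read pairs on an Illumina NextSeq, per the labels of every cell. The authors aligned them to mm10 with Subread and counted with featureCounts. The deposited values are raw read pair counts per Entrez GeneID and cell, with no normalization and no molecular identifiers. Whether strand was used in counting is not given in the sources used here. Of 27179 IDs, 25275 matched the RefSeq gene table, and the unmatched held 1.84% of the read pairs. After 15 mitochondrial and 124 ribosomal protein genes were set aside, 25136 were kept. No 2 cell tables were identical.

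Retained cells were thinned to 100000 read pairs (random seed 1). The junction genes, lists and markers were chosen with earlier results of these data known. Classes were cut at 1 on the lineage score and 0.5 on the state score, with 10 CPM added before the log. A ratio compares summed CPM, and past 2-fold is a rule of size over genes reaching 20 CPM in either group. Ratio intervals are exact binomial intervals of the reads at 95%, shares of cells have Clopper-Pearson intervals, and a 0 is replaced by 3 counts. These cover counting error only. As each stage is 1 sample, no p-value was computed. All 9 members were named, with the 3 genes of each other list whose mean log2 ratio of luminal over basal was largest in size, of either sign, among those read in at least 10% of the cells. A gene that this rule names is not reported here. No doublet caller was run, since the authors viewed each capture site under a microscope. The ratio and interval code was tested on simulated data. Python 3.11.15, numpy 2.4.6, pandas 2.3.3 and scipy 1.17.1 were used, and edgeR 4.0.16 only for TMM factors. Alternatives were unthinned sums, means of cell CPM, TMM factors, an added 10 CPM, a coverage of 200000 read pairs and 2500 genes, other score boundaries, keratin classes, no filter for all genes, 10 reads in place of 1, leaving out the highest cell of each gene, parts of the adult cells, and, chosen after the data were seen, leaving out cells with fibroblast markers.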

Additional observations from a re-analysis of the deposited data

Results flagged for a closer look

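The 121 cells that did not reach 100000 read pairs and 1500 genes were used in no comparison, yet they held reads of the junction genes. Summed over the 9 genes there were 2974 reads in 71 of the 121 cells, a level of 623 CPM, which lies above the limit that 3 counts would set. Tjp1 was at 204 CPM, Cldn7 at 146 CPM, Cdh1 at 95.6 CPM and Cldn8 at 2.31 CPM in 3 cells, values that are not divided by transcript length.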

How the results depend on the processing

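Medians and counts here are over all 9 genes, with no minimum level. By stage, the median of 0.25 was 0.12 with unthinned sums and with TMM factors, 0.48 when each gene lost its highest cell, 0.56 against the other adult cells, -0.94 in basal-marker and 0.42 in luminal-marker cells. The 1 gene past 2-fold higher became 2 with unthinned sums, without the highest cells and against the run 48 to 188, and 4 at 200000 read pairs and 2500 genes and against the other adult cells. The 0 lower became 1 with TMM factors and in luminal-marker cells, 2 against the run and 4 in basal-marker cells, of which Cldn8 did not reach 20 CPM. Cldn4 by stage was -1.25 in basal-marker cells.

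For luminal over basal, the puberty median of 2.5 was 5.18 without the highest cells, 2.06 with 10 CPM added, 6.09 with a boundary of 2 and 2.08 with keratin classes. The adult median of 2.19 was 3.38 with unthinned sums, 3.25 without the highest cells, 1.67 with 10 CPM added, 2.73 at the higher coverage, 3.35 with a boundary of 2 and 4.82 with keratin classes. The 1 adult gene lower became 2 at the higher coverage, in the run and with keratin classes. Adult Cldn8 was -0.22 in the run.

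For mature over progenitor, the puberty median of -0.45 was -0.25 with unthinned sums, 0.22 without the highest cells, 0.05 at the higher coverage and -0.74 with TMM factors, and the 1 higher became 2 with unthinned sums, without the highest cells and with a boundary of 1, and 3 at the higher coverage. The adult median of 0.18 was -0.04 with unthinned sums, -0.23 with means of cell CPM and without the highest cells, -1.23 at the higher coverage and -0.78 in the run. The 3 adult genes higher became 1 without the highest cells and in the run, and the 3 lower became 5 at the higher coverage. In the adult, Cdh1 was 0.58 in the other adult cells, Cldn8 was -3.09 in the run, Ocln was -0.23 without the highest cells, and Tjp1 was -1.5 at the higher coverage and -1.96 in the run. Leaving out cells or parts of the adult set by construction uses fewer cells. For the other settings the cause was not tested.

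No paired analysis was possible because the numbers in the labels only name cells, and each stage is 1 sample. Single cells held up to all the reads of a gene in a class, so shares of cells and summed levels can differ in direction. At 1 read per 10 CPM, a gene at 0 in a cell was not detectable at this depth, which does not make it absent. Classes were rebuilt from markers here.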

Other observations

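In the 26 cells with 3 or more fibroblast markers, Cldn1 and Cldn8 had 0 reads, which allows a share of up to 11.5% of such cells, Ocln was read in 1 cell and Cdh1 in 11.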
